A study of Homo sapiens with 15 samples.

Results

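The chains of the high-affinity IgE receptor and its relatives in the MS4A family were followed in 7 genes, FCER1A, FCER1G, MS4A2, MS4A3, MS4A4A, MS4A6A and MS4A7, out of 56624 gene symbols in the deposited table. They were picked by name, with the levels of these same libraries known, so their levels and differences are given as a description and without a p-value. The cells were TF-1, a human erythroleukaemia line that depends on cytokines such as GM-CSF for growth. The groups were 4 lines with a base-edited IDH mutation, IDH1R132H, IDH2R140Q, IDH2R140W and IDH2R172K, and unedited Parental TF-1 cells, with 3 poly(A) RNA libraries each. Parental cells received 2 ng/ml GM-CSF and the edited lines none, so genotype and medium cannot be told apart where a line is set against Parental; the edited lines share a medium. The labels do not say whether an edited line is a single clone, whether the edit is on one allele or both, or whether the libraries of a group came from separate cultures. The series asked which transcripts differ between the edited lines and the unedited cells.

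The high-affinity IgE receptor of mast cells and basophils is built from an alpha chain that binds IgE (FCER1A), a beta chain that amplifies the signal (MS4A2) and a gamma chain with an activation motif that recruits SYK (FCER1G). The gamma chain also serves other Fc receptors and lectin receptors of myeloid cells, and a receptor without the beta chain exists in human dendritic cells and monocytes. MS4A2 belongs to a family of membrane proteins with several transmembrane segments, encoded side by side on chromosome 11. Within that family MS4A3 marks granulocyte-monocyte progenitors and basophils, while MS4A4A, MS4A6A and MS4A7 are known from monocytes and macrophages.

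Levels are in TPM, a transcript abundance scaled for transcript length and to a fixed library total, and the read depth behind them is unknown, so no counting interval is given. Differences were taken between log2(TPM + 1) values, a scale that understates the change of low genes, and come from a limma fit of all 15 libraries and 14881 genes. A gene counted as changed where the p adjusted by Benjamini and Hochberg was under 0.05 and the difference at least 1, which is 2-fold. An exact test of 3 libraries against 3 cannot go below p = 0.1, so every adjusted p rests on a spread pooled over groups and genes, and that spread may be technical. The gene lists set beside the members were also chosen with earlier results of these data known. Their counts stand beside the share of all genes as a description, and no excess is read from them. An adjusted p of a list gene does not allow for that choice. Each of the 15 libraries lay closest to a library of its own group. The share of TPM in ribosomal protein genes was 20.2% in IDH2R140W replicate 3 and 19.3% in Parental replicate 2, against 12.7% to 16.9% elsewhere, and leaving both libraries out changed no member's call against Parental. The median tested gene lay above Parental in each line, by 0.16 for IDH1R132H, by 0.23 for IDH2R140Q, by 0.03 for IDH2R140W and by 0.13 for IDH2R172K.

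Of the 7 genes, 6 reached 1 TPM in at least 3 libraries and were fitted, and MS4A7 did not. TF-1 cells held transcripts of all 3 receptor chains, but at very unequal levels, and the edited lines differed most from Parental in FCER1A, MS4A2 and MS4A4A. FCER1A was higher in every edited line. MS4A2 was far higher in IDH1R132H than in any other group. MS4A4A was lower in every edited line and lowest in IDH2R140W.

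**Figure D1:**
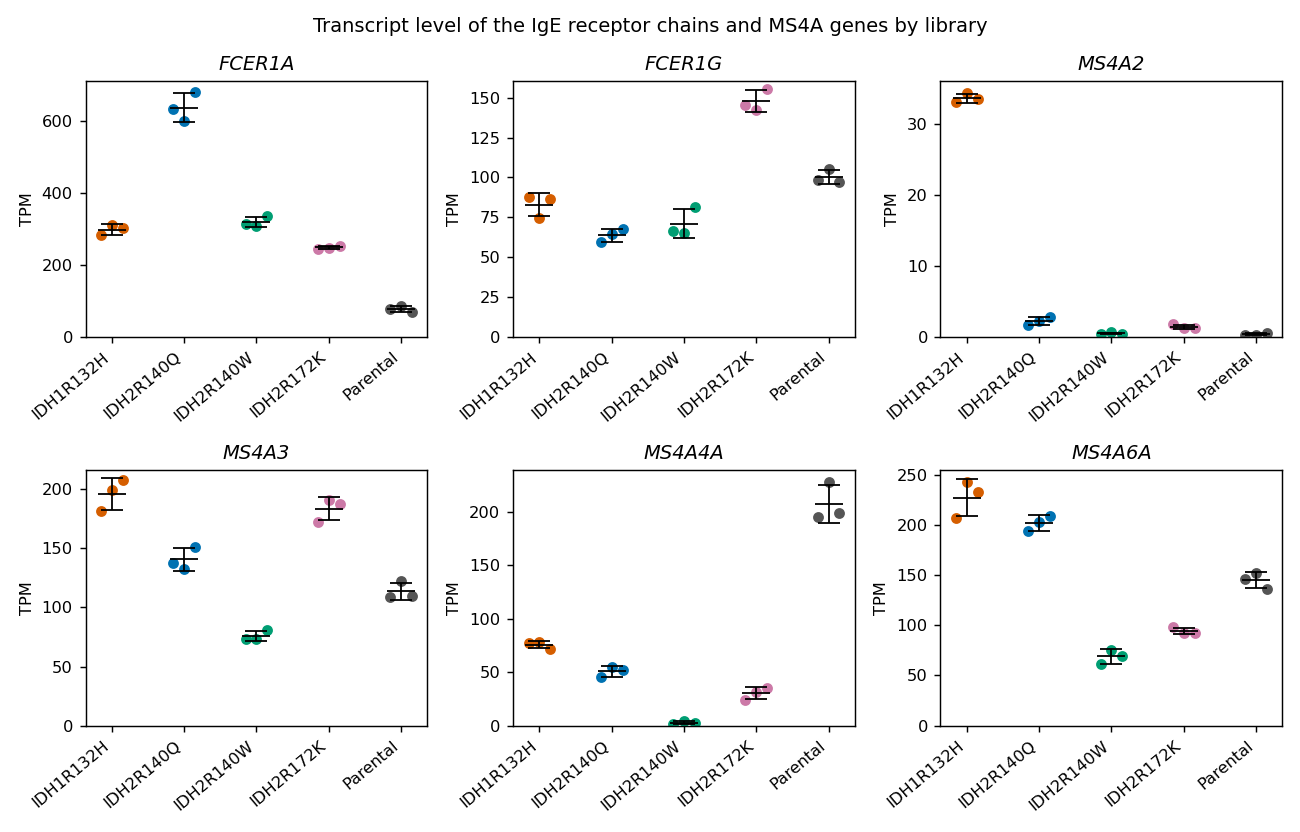
TPM of the 6 fitted genes in each library, with 1 point per library, the group mean as a wide bar and the SD as the error bar (n = 3 libraries). MS4A2 lies between 33.0 and 34.3 TPM in IDH1R132H and at 2.73 TPM or less in the other libraries, and MS4A4A lies at 3.95 TPM or less in IDH2R140W and between 196 and 228 TPM in Parental.

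FCER1A (ENSG00000179639, hg38 chromosome 1, 159289714 to 159308224, plus strand) encodes the IgE-binding alpha chain. It stood at 282, 309.5 and 303 TPM in the IDH1R132H libraries and at 632, 599.5 and 680.1 TPM in IDH2R140Q. In IDH2R140W it stood at 313, 309 and 335 TPM, in IDH2R172K at 245, 248 and 252 TPM, and in Parental at 76.5, 86.0 and 70.3 TPM. All 12 edited libraries lay above all 3 Parental libraries, and IDH2R140Q lay above every other group. The ranges of IDH1R132H and IDH2R140W overlapped, and IDH2R172K was the lowest of the edited lines. The mean was 3.84-fold the Parental mean in IDH1R132H, 8.21-fold in IDH2R140Q, 4.11-fold in IDH2R140W, and 3.2-fold for IDH2R172K. The log2 differences from Parental were 1.93, 3.02, 2.03 and 1.67 in that order of lines (SE 0.07 each). Since RNA came from bulk cells, more cells with the transcript and more transcript per cell cannot be told apart, here or for the genes that follow.

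FCER1G (ENSG00000158869, chromosome 1, 161215234 to 161220699, plus strand) encodes the shared signalling gamma chain. It stood at 87.8, 74.5 and 86.5 TPM in IDH1R132H and at 59.2, 64.3 and 67.5 TPM in IDH2R140Q. In IDH2R140W it stood at 66.5, 65.0 and 81.5 TPM, in IDH2R172K at 145, 143 and 156 TPM, and in Parental at 98.3, 106 and 97.1 TPM. IDH2R172K was thus above Parental in every library and the other 3 edited lines were below it in every library. IDH2R140W overlapped both IDH1R132H and IDH2R140Q. The differences from Parental were -0.27 for IDH1R132H, -0.65 for IDH2R140Q, -0.50 for IDH2R140W and 0.56 for IDH2R172K (SE 0.09 each), all of them under 2-fold.

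MS4A2 (ENSG00000149534, chromosome 11, 60088261 to 60098466, plus strand) encodes the beta chain, which distinguishes the mast cell and basophil form of the receptor. It stood at 33.0, 34.3 and 33.5 TPM in IDH1R132H, at 1.71, 2.23 and 2.73 TPM in IDH2R140Q and at 0.41, 0.62 and 0.40 TPM in IDH2R140W. In IDH2R172K it stood at 1.78, 1.22 and 1.28 TPM and in Parental at 0.33, 0.30 and 0.61 TPM. IDH1R132H stood far above every other library, while IDH2R140Q and IDH2R172K overlapped each other, as did IDH2R140W and Parental. The IDH1R132H mean of 33.6 ± 0.664 TPM was 81.3-fold the Parental mean of 0.413 ± 0.171 TPM (SD, n = 3 each). The log2 difference was 4.62 for IDH1R132H, 1.18 for IDH2R140Q, 0.07 for IDH2R140W and 0.78 for IDH2R172K (SE 0.16 each), and 7 of the 14881 genes differed by more than MS4A2 in IDH1R132H. With a pseudocount of 0.1 in place of 1, the difference was 6.09 in IDH1R132H and 1.60 in IDH2R172K. In IDH2R140Q the value of 1.18 became 0.94 after quantile normalisation, and in IDH2R140W the sign turned to -0.01 there.

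The chains therefore stood in different proportions in each line. FCER1A transcript per FCER1G transcript was 3.21, 4.15 and 3.50 in the IDH1R132H libraries and 10.7, 9.33 and 10.1 in IDH2R140Q. It was 4.71, 4.75 and 4.11 in IDH2R140W, 1.69, 1.74 and 1.62 in IDH2R172K and 0.778, 0.815 and 0.724 in Parental. The gamma chain was thus the more abundant transcript in Parental and the alpha chain in all 12 edited libraries. FCER1A per MS4A2 was 8.55, 9.02 and 9.04 in IDH1R132H, and it was 115 or more in every other library, up to 836 in IDH2R140W. Outside IDH1R132H it was divided by MS4A2 values of 2.73 TPM or less, so its size there is uncertain. Within Parental alone it was 232, 287 and 115. These ratios are of transcripts scaled per length and do not measure receptor at the cell surface.

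Promoter sequence is shown for the genes with the largest differences, FCER1A, MS4A2 and MS4A4A, because factors of the GATA and ETS families are known to act on the alpha and beta chain genes in mast cells. The sequences are from RefSeq on GRCh38.p14 and run 5′ to 3′ on the plus strand, from 250 bases before to 50 bases after the RefSeq start. They lie at chr1:159302086-159302385, chr11:60088414-60088713 and chr11:60280416-60280715. All 3 RefSeq starts fall inside the gene spans given here from GENCODE. Capitals mark GATA words (AGATAA or AGATAG, and equally TGATAA or TGATAG, on either strand, so that TTATCT is AGATAA read on the other strand) and the ETS word GAGGAA, searched on both strands; none of the marked words overlap.
FCER1A promoter: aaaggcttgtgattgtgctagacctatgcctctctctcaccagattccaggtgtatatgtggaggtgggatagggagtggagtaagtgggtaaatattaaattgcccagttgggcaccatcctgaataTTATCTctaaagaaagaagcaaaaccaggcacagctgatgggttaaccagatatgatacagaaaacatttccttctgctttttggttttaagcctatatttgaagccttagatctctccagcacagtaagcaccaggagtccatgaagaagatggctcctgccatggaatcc
MS4A2 promoter: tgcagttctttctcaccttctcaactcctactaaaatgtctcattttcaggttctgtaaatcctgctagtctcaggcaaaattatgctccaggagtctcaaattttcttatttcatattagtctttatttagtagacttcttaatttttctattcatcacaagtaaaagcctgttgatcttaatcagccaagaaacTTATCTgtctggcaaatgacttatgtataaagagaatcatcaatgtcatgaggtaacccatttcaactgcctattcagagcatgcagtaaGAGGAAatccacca
MS4A4A promoter: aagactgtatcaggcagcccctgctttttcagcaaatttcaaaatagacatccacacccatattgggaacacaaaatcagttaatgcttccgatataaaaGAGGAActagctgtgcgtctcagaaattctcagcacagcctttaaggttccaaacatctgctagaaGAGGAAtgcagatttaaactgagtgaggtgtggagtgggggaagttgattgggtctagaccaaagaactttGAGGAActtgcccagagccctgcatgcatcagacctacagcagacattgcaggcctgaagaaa
FCER1A held 1 GATA word, 122 bases before the start, and no GAGGAA. Other forms of an ETS site were not searched, so a promoter without GAGGAA may still hold such a site. MS4A2 held a GATA word 54 bases before the start and GAGGAA at position 37 after it. MS4A4A held no GATA word and GAGGAA at 150, 84 and 13 bases before the start. Of 35116 RefSeq promoters of this length, 25% held a GATA word and 27.9% held GAGGAA, so either word is common by itself, and a match is a run of letters and not a measured binding site.

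MS4A3 (ENSG00000149516, chromosome 11, 60056587 to 60071128, plus strand) lies next to MS4A2 and encodes a haematopoietic cell cycle regulator. It stood at 181, 199 and 208 TPM in IDH1R132H, at 138, 133 and 151 TPM in IDH2R140Q and at 73.1, 73.6 and 81.2 TPM in IDH2R140W. In IDH2R172K it stood at 172, 191 and 188 TPM and in Parental at 108, 122 and 110.1 TPM. From high to low the order was IDH1R132H, IDH2R172K, IDH2R140Q, Parental and IDH2R140W, and only the first 2 overlapped. The differences from Parental were 0.78 for IDH1R132H, 0.31 for IDH2R140Q, -0.57 for IDH2R140W and 0.69 for IDH2R172K (SE 0.08 each), none of them 2-fold. After quantile normalisation or median-ratio scaling, the IDH2R140Q difference was as low as 0.04.

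MS4A4A (ENSG00000110079, chromosome 11, 60185702 to 60317944, plus strand) encodes a macrophage surface protein. It stood at 77.1, 78.0 and 72.2 TPM in IDH1R132H, at 45.1, 54.8 and 52.1 TPM in IDH2R140Q and at 1.40, 3.95 and 2.38 TPM in IDH2R140W. In IDH2R172K it stood at 24.1, 31.6 and 34.9 TPM and in Parental at 196, 228 and 199 TPM. None of the 5 groups overlapped another, and the order from high to low was Parental, IDH1R132H, IDH2R140Q, IDH2R172K and IDH2R140W. The mean was 2.58 ± 1.29 TPM in IDH2R140W and 207.5 ± 18.0 TPM in Parental (SD, n = 3 each), so that Parental had 80.5-fold the IDH2R140W level. The differences from Parental were -1.44 for IDH1R132H, -2.01 for IDH2R140Q, -5.92 for IDH2R140W and -2.75 for IDH2R172K (SE 0.20 each). Of the 14881 genes, 0 had a larger absolute difference between IDH2R140W and Parental. The annotation places MS4A4E inside MS4A4A on the opposite strand, over 41836 bases. The library kit was directional, but the strand setting of the counting is not given in the sources used here, so reads of both genes may not be fully separated. MS4A4E stood at 1.87 ± 0.547 TPM or less in every group. In IDH2R140W it averaged 1.19 ± 0.668 TPM, beside 2.58 ± 1.29 TPM for MS4A4A (SD, n = 3 each).

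MS4A6A (ENSG00000110077, chromosome 11, 60172014 to 60184666, minus strand) is the neighbour of MS4A4A and is known from monocytes and microglia. It stood at 206.5, 242 and 232 TPM in IDH1R132H, at 193, 203 and 209 TPM in IDH2R140Q and at 61.5, 75.5 and 69.5 TPM in IDH2R140W. In IDH2R172K it stood at 97.8, 92.0 and 92.2 TPM and in Parental at 146, 152 and 136 TPM. IDH1R132H and IDH2R140Q overlapped each other and lay above Parental, whereas IDH2R172K and IDH2R140W lay below it. The differences from Parental were 0.64, 0.48, -1.07 and -0.62 in IDH1R132H, IDH2R140Q, IDH2R140W and IDH2R172K (SE 0.08 each). The value in IDH2R140W was -0.99, just inside 2-fold, without IDH2R140W replicate 1. MS4A6A per MS4A4A was 2.68, 3.11 and 3.22 in IDH1R132H, 4.29, 3.70 and 4.01 in IDH2R140Q and 4.06, 2.91 and 2.64 in IDH2R172K. It was 43.9, 19.1 and 29.2 in IDH2R140W and 0.748, 0.666 and 0.685 in Parental, where alone MS4A4A was the more abundant of the pair.

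MS4A7 (ENSG00000166927, chromosome 11, 60378482 to 60395951, plus strand), known from macrophages, was listed at 0 in 12 of the 15 libraries. It stood at 0.41 TPM in IDH1R132H replicate 1 and at 0.27 and 0.17 TPM in IDH2R140Q replicates 2 and 3. It shares its strand and nearly all of its span with MS4A6E and MS4A14, so these low values are uncertain in origin.

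Counted by the call rule, the members past it against Parental were FCER1A, MS4A2 and MS4A4A in IDH1R132H, which makes 3 of 6 where 10.8% of all tested genes changed. The same 3 of 6 passed in IDH2R140Q, where 10.0% of genes changed. In IDH2R140W these were FCER1A, MS4A4A and MS4A6A, 3 of 6 beside 4.78%. In IDH2R172K they were FCER1A and MS4A4A, 2 of 6 beside 9.31%. The groups did not overlap for 6 of 6 members in IDH1R132H (52.4% of genes), IDH2R140Q (53.9%) and IDH2R172K (47.9%), and for 5 of 6 in IDH2R140W (31.4%), the exception being MS4A2. Because the genes were picked with these levels known, nothing is read from their shares. The 4 comparisons share the Parental libraries.

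**Figure D2:**
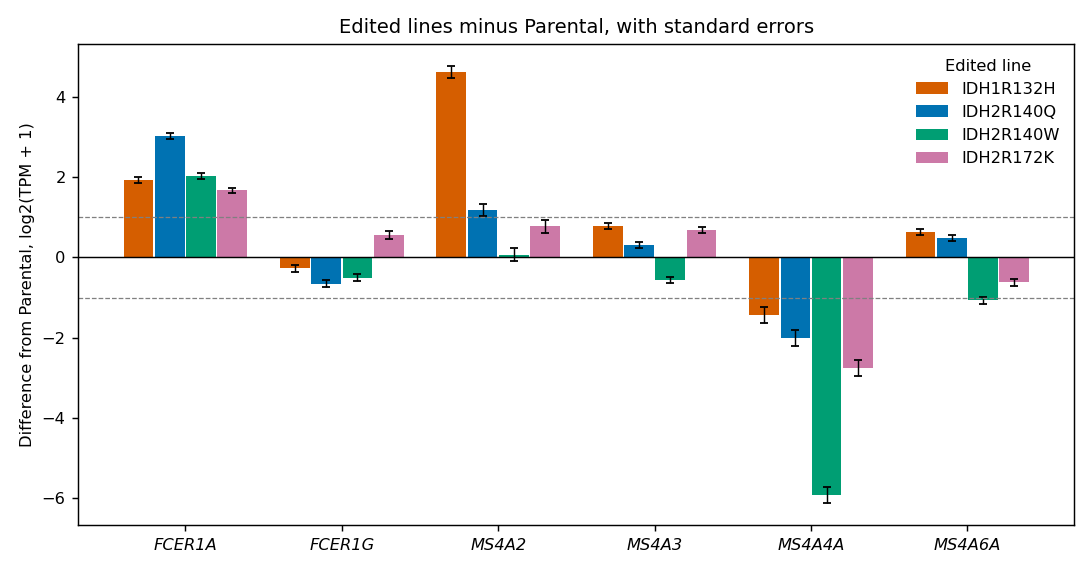
Difference of each edited line from Parental on the log2(TPM + 1) scale for the 6 fitted genes. Bars are limma estimates, error bars are standard errors and dashed lines mark 2-fold; FCER1A is positive in all 4 lines, MS4A4A is negative in all 4, and FCER1G, MS4A3 and MS4A6A take both signs.

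The edited lines, which grew in the same medium, also differed from each other; differences are the first-named line minus the second. Between IDH1R132H and IDH2R140Q the rule was passed by FCER1A at -1.09 and MS4A2 at 3.44, 2 of 6 members beside 5.50% of genes. Between IDH1R132H and IDH2R140W it was passed by MS4A2 at 4.55, MS4A3 at 1.36, MS4A4A at 4.48 and MS4A6A at 1.71, 4 of 6 beside 7.86%. IDH1R132H thus had more transcript of the 4 fitted MS4A members than IDH2R140W, while their FCER1A ranges overlapped, at a difference of -0.10. Between IDH1R132H and IDH2R172K the rule was passed by MS4A2 at 3.84, MS4A4A at 1.31 and MS4A6A at 1.26, 3 of 6 beside 7.49%, and FCER1G differed by -0.83.

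The 2 lines edited at the same IDH2 residue, IDH2R140Q and IDH2R140W, differed past the rule in MS4A2 at 1.12, MS4A4A at 3.91 and MS4A6A at 1.54, 3 of 6 members beside 5.69% of genes. The MS4A2 difference was 0.94 after quantile normalisation and at the 2-fold limit after median-ratio scaling. FCER1A differed by 1.00, just short of the rule, and passed it at 1.04 without IDH2R140Q replicate 2 and at 1.03 without IDH2R140W replicate 3. It was 0.95 without IDH2R140Q replicate 3 and 0.78 with median-ratio scaling. Between IDH2R140Q and IDH2R172K the rule was passed by FCER1A at 1.35, FCER1G at -1.20 and MS4A6A at 1.09, 3 of 6 beside 7.57%, the last at 0.99 after median-ratio scaling. Between IDH2R140W and IDH2R172K it was passed by FCER1G at -1.05, MS4A3 at -1.26 and MS4A4A at -3.17, 3 of 6 beside 6.86%. Groups did not overlap for 5 of 6 members between IDH1R132H and IDH2R140Q (52.4% of genes), for 4 of 6 between IDH1R132H and IDH2R140W (49.3%) and for 5 of 6 between IDH1R132H and IDH2R172K (51.9%). They did not for 5 of 6 between IDH2R140Q and IDH2R140W (48.9%), for 5 of 6 between IDH2R140Q and IDH2R172K (51.2%) and for 6 of 6 between IDH2R140W and IDH2R172K (44.1%). In the last pair the FCER1G difference was -0.95 after either rescaling, and MS4A2, at -0.71, reached -1.41 with a pseudocount of 0.1.

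The MS4A members lie within 339 kb of chromosome 11. Across the 15 libraries, which hold 5 groups and therefore few independent points, Pearson's r of log2(TPM + 1) was 0.74 for MS4A4A with MS4A6A and 0.67 for MS4A2 with MS4A3. It was 0.67 for MS4A2 with MS4A6A and 0.60 for MS4A3 with MS4A6A. FCER1A had r = -0.50 with FCER1G and -0.46 with MS4A4A. MS4A3 with MS4A4A had r = 0.55 and MS4A2 with MS4A4A r = 0.27. Of 13 other genes of the MS4A family, TMEM176 genes included, 2 passed the filter and 5 (MS4A1, MS4A5, MS4A8, MS4A10 and MS4A12) were listed at 0 in all 15 libraries. MS4A4E rose in IDH2R140Q by 1.25 (SE 0.29, limma adjusted p = 0.00292) and was the only one of the 2 to change in any edited line against Parental.

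**Figure D3:**
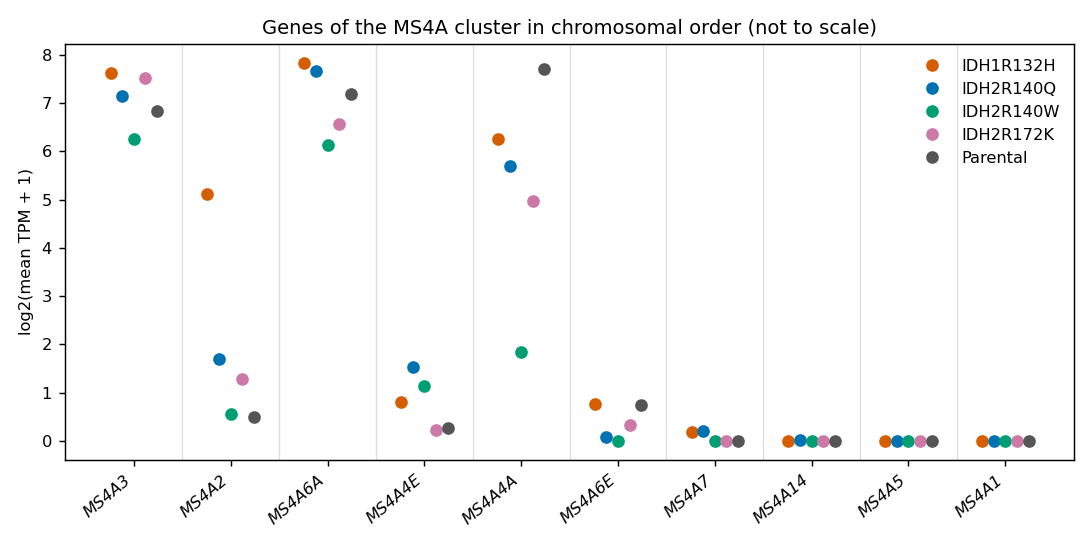
Mean level of 10 genes of the MS4A cluster, on a log2(mean TPM + 1) scale, with 1 point per group and no distances drawn to scale. The order is chromosomal by gene start, except that MS4A4E, which lies inside MS4A4A, is drawn before it. MS4A3, MS4A6A and, outside IDH2R140W, MS4A4A are abundant, MS4A2 stands out in IDH1R132H, and the remaining genes of the cluster lie at 1.87 TPM or less.

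Of the nearest protein-coding genes on each side of the members, 20 in number and none of them a member, 5 passed the filter. TOMM40L, near FCER1G, differed by 0.57 in IDH1R132H (limma adjusted p = 0.000204), under 2-fold. AIM2, a DNA sensor near FCER1A, stood at 1.78 TPM or less in every group and differed from Parental by 0.28 at most.

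Other Fc receptors were compared next, of which 5 of 13 passed the filter. FCER2, the low-affinity IgE receptor CD23, stood at 2.72 ± 0.234, 2.28 ± 0.528, 0.143 ± 0.0493 and 6.56 ± 0.863 TPM in IDH1R132H, IDH2R140Q, IDH2R140W and IDH2R172K and at 1.88 ± 0.320 TPM in Parental (SD, n = 3 each). Against Parental it fell by 1.33 in IDH2R140W (SE 0.16, limma adjusted p = 2.85e-05) and rose by 1.39 in IDH2R172K (SE 0.16, limma adjusted p = 9.69e-06). FCGR2A, an activating IgG receptor, rose in IDH1R132H by 1.02 (limma adjusted p = 3.43e-06) and in IDH2R140Q by 1.09 (limma adjusted p = 2.13e-06). Both fell short of 2-fold after either rescaling and without Parental replicate 2. FCGR2B, the inhibitory IgG receptor, rose by 1.08 in IDH2R140Q (limma adjusted p = 0.000596) and by 1.15 in IDH2R140W (limma adjusted p = 0.000671). In IDH2R140Q it missed 2-fold after either rescaling and in IDH2R140W without IDH2R140W replicate 3, and reads of FCGR2B and its near-identical copy FCGR2C may be split between them. FCGRT, the neonatal Fc receptor, was the most abundant of the list and did not change in any line by this rule. Of all tested genes 7.74%, 7.56%, 2.68% and 6.36% rose in IDH1R132H, IDH2R140Q, IDH2R140W and IDH2R172K and 3.09%, 2.47%, 2.10% and 2.96% fell. The list of Fc receptors had 1 gene higher and 0 lower in IDH1R132H, 2 and 0 in IDH2R140Q, 1 and 1 in IDH2R140W, and 1 and 0 in IDH2R172K. At an unadjusted limma p under 0.05 and any size, 3, 1 and 0 genes were lower in the lines with a count of 0 lower, IDH1R132H, IDH2R140Q and IDH2R172K.

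The gamma chain belongs to a set of small signalling adaptors, and 2 of the others were abundant. TYROBP (DAP12), which pairs with activating receptors of myeloid cells, stood at 387 ± 20.6, 87.3 ± 5.34, 78.2 ± 4.38 and 591 ± 18.4 TPM in IDH1R132H, IDH2R140Q, IDH2R140W and IDH2R172K and at 218 ± 14.7 TPM in Parental (SD, n = 3 each). It fell by 1.31 in IDH2R140Q (SE 0.07, limma adjusted p = 5.11e-09) and by 1.47 in IDH2R140W (SE 0.07, limma adjusted p = 4.77e-09). It rose by 1.43 in IDH2R172K (SE 0.07, limma adjusted p = 2.17e-09), and its value of 0.82 in IDH1R132H was under 2-fold. HCST (DAP10), an adaptor that recruits PI3-kinase, rose by 1.87 in IDH1R132H (SE 0.09, limma adjusted p = 2.14e-09), 1.48 in IDH2R140Q (limma adjusted p = 2.39e-08) and 1.98 in IDH2R172K (limma adjusted p = 1.54e-09). In IDH2R140W it differed by 0.43. FCER1G, TYROBP and HCST all had their highest mean level in IDH2R172K. For HCST, however, IDH1R132H minus IDH2R172K was only -0.11 (limma adjusted p = 0.404). Of the list of 19 adaptors and receptors that pair with them, 3 passed the filter, and 9, among them FCAR, FCGR1A and GP6, were listed at 0 in all libraries. Of all tested genes 7.74%, 7.56%, 2.68% and 6.36% rose in IDH1R132H, IDH2R140Q, IDH2R140W and IDH2R172K and 3.09%, 2.47%, 2.10% and 2.96% fell. The adaptor list had 1 gene higher and 0 lower in IDH1R132H, 1 and 1 in IDH2R140Q, 0 and 1 in IDH2R140W, and 2 and 0 in IDH2R172K. At an unadjusted limma p under 0.05 and any size, 1 was higher in IDH2R140W and 0 were lower in IDH1R132H and IDH2R172K.

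The kinases, scaffolds and phosphatases downstream of the receptor were followed in a list of 34 genes, 28 of which passed the filter. In IDH1R132H 6 rose and 1 fell, in IDH2R140Q 7 rose and 0 fell, in IDH2R140W 0 rose and 0 fell, and in IDH2R172K 3 rose and 0 fell. Of all genes 7.74%, 7.56%, 2.68% and 6.36% rose in these lines and 3.09%, 2.47%, 2.10% and 2.96% fell. The median difference over the 28 genes was 0.62, 0.56, 0.27 and 0.39, beside medians of 0.16, 0.23, 0.03 and 0.13 over all tested genes. At an unadjusted limma p under 0.05 and any size, 13 genes were higher and 2 lower in IDH2R140W, and 4 and 0 were lower in IDH2R140Q and IDH2R172K.

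FYN, an SRC-family kinase that acts beside LYN at the receptor, rose by 1.58 in IDH1R132H (limma adjusted p = 0.000231), 1.02 in IDH2R140Q (limma adjusted p = 0.00593) and 1.18 in IDH2R172K (limma adjusted p = 0.00261). SYK, the kinase recruited by the gamma chain, rose by 1.09 in IDH1R132H (limma adjusted p = 4.57e-05) and by 1.17 in IDH2R140Q (limma adjusted p = 2.79e-05). It averaged 37.8 ± 2.67 TPM in IDH1R132H, 40.1 ± 2.30 TPM in IDH2R140Q and 17.4 ± 3.30 TPM in Parental (SD, n = 3 each). TEC, a kinase that acts on phospholipase C gamma, rose by 1.19 and 1.74 in the same lines. PIK3CD, the leukocyte PI3-kinase subunit p110 delta, rose by 1.25 in IDH1R132H, 1.55 in IDH2R140Q and 1.62 in IDH2R172K (limma adjusted p = 1.1e-05, 1.79e-06 and 1.12e-06). The scaffold LCP2 and the ubiquitin ligase CBLB also rose in IDH1R132H and IDH2R140Q, and PRKCB fell by 1.39 in IDH1R132H (limma adjusted p = 0.000262). LYN, the kinase that first phosphorylates the chains, averaged 184, 114, 152 and 135 TPM in IDH1R132H, IDH2R140Q, IDH2R140W and IDH2R172K and 147 TPM in Parental and did not change by this rule. LAT2, BTK, PTPN6, PRKCD and ORAI1 were listed at 0 in all 15 libraries, and a 0 in this table may be a failed estimate.

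The summed level of the signalling list was 1890 to 1949 TPM in IDH1R132H, 1762 to 1815 in IDH2R140Q, 1293 to 1703 in IDH2R140W and 1810 to 1886 in IDH2R172K, and 1062 to 1497 in Parental. The lowest sums were those of Parental replicate 2 and IDH2R140W replicate 3, the libraries with the highest ribosomal protein share. PIK3CD in all 3 lines, FYN, CBLB and PRKCB in IDH1R132H and TEC in IDH2R140Q kept their calls under every alternative. After median-ratio scaling SYK and LCP2 fell short of 2-fold in IDH1R132H and IDH2R140Q, as did FYN and CBLB in IDH2R140Q, and TEC did in IDH1R132H after quantile normalisation. The lowest values of SYK were 0.89 and 0.91 and those of LCP2 0.80 and 0.89 in IDH1R132H and IDH2R140Q. FYN reached down to 0.76 in IDH2R140Q and 0.95 in IDH2R172K, and CBLB to 0.84 in IDH2R140Q. Without Parental replicate 2, SYK in IDH1R132H, CBLB in IDH2R140Q, LCP2 in both lines and FYN in IDH2R140Q and IDH2R172K also missed 2-fold. FYN missed it as well without IDH2R140Q replicate 2 or 3, and without IDH2R172K replicate 3. In IDH2R140Q the counts were 3 higher and 1 lower without Parental replicate 2 and 2 higher and 1 lower after median-ratio scaling. In IDH1R132H quantile normalisation left 3 higher and 1 lower. In IDH2R172K 5 rose without Parental replicate 1 or without Parental replicate 3, and in IDH2R140W 1 rose without IDH2R140W replicate 3.

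The wider gene set of mast cells, basophils and eosinophils was counted next. Of 30 such genes 22 passed the filter, with 3 higher and 1 lower in IDH1R132H, 4 and 3 in IDH2R140Q, 14 and 0 in IDH2R140W, and 9 and 2 in IDH2R172K. Of all genes tested, 7.74%, 7.56%, 2.68% and 6.36% rose and 3.09%, 2.47%, 2.10% and 2.96% fell in IDH1R132H, IDH2R140Q, IDH2R140W and IDH2R172K. The median difference of the 22 genes was -0.02, 0.43, 1.49 and 0.60 in this order, beside 0.16, 0.23, 0.03 and 0.13 over all genes. This list was chosen with earlier results of these data known, so no excess over all genes is read from its counts or medians. In IDH2R140W, 1 gene was lower at an unadjusted limma p under 0.05. In IDH2R140W, where 14 of these genes rose, the MS4A2 level overlapped Parental, and in IDH1R132H, where MS4A2 was highest, 3 rose. The IDH1R132H counts were 2 higher and 0 lower without Parental replicate 2 and 5 and 2 without IDH1R132H replicate 1.

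In IDH2R140W the tryptases TPSB2 and TPSAB1 rose by 4.01 and 3.43 (SE 0.18 each, limma adjusted p = 3.66e-09 and 1.52e-08), and reads of these near-identical genes may be split between them. IL1RL1, the IL-33 receptor, rose by 2.90 (limma adjusted p = 1.54e-06) and ENPP3, a basophil activation marker, by 2.91 (limma adjusted p = 2.46e-06). In IDH2R172K HDC, which makes histamine, averaged 109.5 ± 3.18 TPM against 1.29 ± 0.580 TPM in Parental (SD, n = 3 each; log2 difference 5.63, SE 0.22, limma adjusted p = 3.55e-10). The eotaxin receptor CCR3 rose there by 2.83 (limma adjusted p = 1.17e-06). KIT, the stem cell factor receptor, fell by 1.52 in IDH2R140Q (limma adjusted p = 1.47e-05) and by 1.19 in IDH2R172K (limma adjusted p = 0.000125). PRG2 fell by 1.01, 3.30 and 1.91 in IDH1R132H, IDH2R140Q and IDH2R172K (limma adjusted p = 0.00733, 4.32e-07 and 7.15e-05). SLC18A2 fell by 1.15 in IDH2R140Q (limma adjusted p = 4.92e-07). ALOX5AP, needed for leukotriene synthesis, rose in all 4 lines, by 2.45, 1.13, 1.52 and 1.37 in IDH1R132H, IDH2R140Q, IDH2R140W and IDH2R172K, and SIGLEC6, a mast cell lectin, did too. The ALOX5AP value for IDH2R140Q missed 2-fold after either rescaling and without IDH2R140Q replicate 2, at 0.85 at the lowest.

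**Figure D4:**
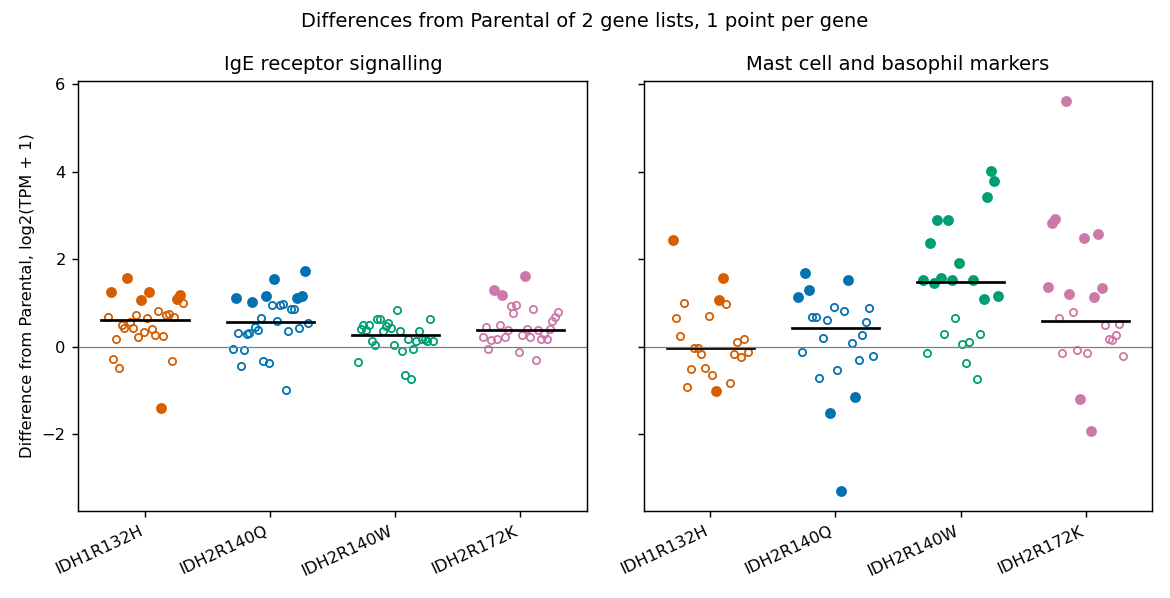
Difference of each edited line from Parental, log2(TPM + 1), for the 28 tested genes of receptor signalling and the 22 tested mast cell and basophil markers, with 1 point per gene, filled where the gene changed, and a line at the median. The medians of the signalling genes are 0.62, 0.56, 0.27 and 0.39 and those of the markers are -0.02, 0.43, 1.49 and 0.60 in IDH1R132H, IDH2R140Q, IDH2R140W and IDH2R172K.

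A list of 15 transcription factors held known and possible regulators of FCER1A and MS4A2. Not each of them is established as acting on these genes. Of the 15, 14 passed the filter, and GATA1 was listed at 0 in all 15 libraries, which may be a failed estimate. Of all tested genes 7.74%, 7.56%, 2.68% and 6.36% rose in IDH1R132H, IDH2R140Q, IDH2R140W and IDH2R172K and 3.09%, 2.47%, 2.10% and 2.96% fell. Of the listed factors 2 rose in each of IDH1R132H, IDH2R140Q and IDH2R140W and 1 rose in IDH2R172K, while 0 fell in any line. At an unadjusted limma p under 0.05 and any size, 2, 0, 2 and 3 of them were lower in IDH1R132H, IDH2R140Q, IDH2R140W and IDH2R172K. RUNX1 rose in each line, by 1.60, 1.68, 1.13 and 1.78 in IDH1R132H, IDH2R140Q, IDH2R140W and IDH2R172K (limma adjusted p = 0.000208, 0.000154, 0.00559 and 9.47e-05). It averaged 116 ± 5.49, 123 ± 10.3, 88.7 ± 33.1 and 132 ± 6.90 TPM in these lines and 39.3 ± 13.1 TPM in Parental (SD, n = 3 each). The call in IDH2R140W was lost without Parental replicate 2, without IDH2R140W replicate 1, without IDH2R140W replicate 2 and in a fit of the 2 groups alone, with a lowest value of 0.85 and adjusted p of up to 0.11 by limma. ELF1, an ETS factor, rose in IDH1R132H by 1.01 and in IDH2R140Q by 1.11 (limma adjusted p = 0.000103 and 5.29e-05), and CEBPA rose in IDH2R140W by 1.08 (limma adjusted p = 0.000987). ELF1 missed 2-fold in both lines after either rescaling and without Parental replicate 2, and in IDH1R132H without IDH1R132H replicate 2, with lowest values of 0.82 and 0.85. CEBPA reached 0.91 and missed it without Parental replicate 2 or without IDH2R140W replicate 1. GATA2 averaged 378, 383, 481 and 365 TPM in IDH1R132H, IDH2R140Q, IDH2R140W and IDH2R172K and 353 TPM in Parental, and SPI1 (PU.1) 199, 153, 132 and 163 TPM and 115 TPM; neither changed by the rule in any line.

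For each fitted member the tested genes with the most similar pattern over the 15 libraries were listed by Pearson's r of log2(TPM + 1), as a description. For FCER1A they included CDKN2C (r = 0.982), SERPINE2, IFI6 and MYCT1 (r = 0.961). IFI6, an interferon-induced gene, averaged 123, 417, 262 and 148 TPM in IDH1R132H, IDH2R140Q, IDH2R140W and IDH2R172K and 36.4 TPM in Parental. For FCER1G they were LRTM1 (r = 0.948), HIST1H1C, EPHA1-AS1, AC020907.1 and FAM133A (r = 0.927), several of them low. For MS4A2 they were BIN2 (r = 0.982), KCTD12, TSC22D4, ANKRD16 and TRMT6 (r = 0.970), all highest in IDH1R132H. KCTD12 averaged 36.4, 8.95, 4.49 and 7.40 TPM in the 4 edited lines in the same order and 3.05 TPM in Parental.

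The genes nearest to MS4A3 included LINC01029 (r = 0.971), the macrophage complement receptor VSIG4 (r = 0.970), CCR4 (r = 0.964) and AFF3 (r = 0.957). For MS4A4A they were PDRG1 (r = 0.949), CDK5RAP1, C20orf112, PLAGL2 and SERTAD3 (r = 0.926), and the first 4 of these lie on chromosome 20. PDRG1 averaged 93.1, 78.8, 44.9 and 63.0 TPM in IDH1R132H, IDH2R140Q, IDH2R140W and IDH2R172K and 144 TPM in Parental, the same order of groups as MS4A4A over a smaller range. For MS4A6A they were ELOVL2 (r = 0.951), GPR180, FOXA2, CEBPB and CKLF (r = 0.943). CEBPB, a myeloid transcription factor, averaged 43.7, 34.9, 20.5 and 24.0 TPM in the edited lines and 36.4 TPM in Parental.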

How the data were processed

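Poly(A) RNA of 15 TF-1 libraries was prepared with a directional kit, per the labels' protocols, and the authors deposited 1 table of TPM values with 1 column per library and gene symbols as names. STAR 2.7.3, RSEM, HTSeq and DESeq2 appear in the submitters' processing notes beside hg38, without saying which made the table. Annotation, strand setting and filters: not given in the sources used here. TPM is scaled to a fixed total (columns summed to 999999 to 1000001), so abundant genes move all others and depth is unknown.

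The 63568 rows gave 56624 symbols, values of 1 symbol being summed (2985 symbols, no member among them); 6 rows turned into dates by a spreadsheet were left out. The 14881 symbols that reached 1 TPM in 3 or more libraries were fitted as log2(TPM + 1) with limma 3.58.1 in R 4.3.3, with a mean per group over all libraries and a variance trend. All 4 edited lines were compared with Parental and with each other, and p-values were adjusted over all tested genes. The fit was tested on simulated data. Alternatives were another pseudocount, filter, scaling or fit, the replicate number as a block, leaving out each library, and, added after seeing the data, leaving out 2 libraries of high ribosomal protein share together.

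Members and gene lists were chosen with earlier results of these data known. Named are the members, their neighbours, up to 4 changed genes of each list and comparison by adjusted p, other list genes beside their list's count, and the 5 genes most like each member. Gene spans come from GENCODE 29, promoters from RefSeq; all 7 members were matched in both. A few genes that this rule names are not reported here.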

Additional observations from a re-analysis of the deposited data

Results flagged for a closer look

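Several genes lay on opposite sides of Parental in different edited lines, with every library of a line on the same side; differences between lines are the first-named minus the second. FCER1G lay above Parental in IDH2R172K and below it in the other 3 lines, and IDH2R140Q and IDH2R172K differed by -1.20 (SE 0.09). MS4A3 lay below Parental in IDH2R140W and above it in the other 3 lines, and IDH1R132H and IDH2R140W differed by 1.36 (SE 0.08). MS4A6A lay above Parental in IDH1R132H and IDH2R140Q and below it in IDH2R140W and IDH2R172K, and IDH1R132H and IDH2R140W differed by 1.71 (SE 0.08). These 3 differences passed the call rule of the fit, but no p is given because the genes were picked with their levels known. FCER2 fell in IDH2R140W and rose in IDH2R172K, and these lines differed by -2.72 (SE 0.16, limma adjusted p = 1.69e-08). TYROBP did likewise, and the same lines differed by -2.90 (SE 0.07, limma adjusted p = 9.09e-12).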

How the results depend on the processing

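No member's difference that passed the call rule changed sign under any alternative run. With a pseudocount of 0.1, 1115 genes changed in IDH2R140W against Parental (711 with a pseudocount of 1) and 1298 between IDH2R140Q and IDH2R140W (847). Leaving out each library in turn gave 1454 to 1853 changed genes in IDH1R132H against Parental, 1352 to 1743 in IDH2R140Q, 696 to 814 in IDH2R140W and 1316 to 1583 in IDH2R172K. Of the changed genes, 71.5% rose in IDH1R132H, 75.4% in IDH2R140Q and 68.3% in IDH2R172K against Parental, and 54.4%, 55.1% and 54.5% after median-ratio scaling. The share higher was 69.7% for IDH1R132H against IDH2R140W, 73.7% for IDH2R140Q against IDH2R140W and 35.6% for IDH2R140W against IDH2R172K, and 57.2%, 52.6% and 46.0% after that scaling. With the replicate number as a block, 1610, 1493, 710 and 1383 genes changed in IDH1R132H, IDH2R140Q, IDH2R140W and IDH2R172K against Parental (1612, 1492, 711 and 1386 without it). Of 30 same-number pairs of libraries, 1 had deviations correlated above 0.1, and 7 of 15 libraries were closest to their own number. These values showed no clear pairing by replicate number, but they cannot exclude that same-number libraries were handled together. Since depth is unknown, the counting error of low values cannot be given, such as those of MS4A2 outside IDH1R132H, of MS4A4A in IDH2R140W and of MS4A7.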

Other observations

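Lists of markers of other cell types were counted against Parental in the same way. Beside these lists and the identity list below, 7.74%, 7.56%, 2.68% and 6.36% of all tested genes rose in IDH1R132H, IDH2R140Q, IDH2R140W and IDH2R172K. In the same order of lines, 3.09%, 2.47%, 2.10% and 2.96% of all tested genes fell. Of 24 monocyte and macrophage markers 13 passed the filter, with 4 higher and 1 lower in IDH1R132H, 3 and 0 in IDH2R140Q, 0 and 1 in IDH2R140W, and 4 and 0 in IDH2R172K against Parental. At an unadjusted limma p under 0.05 and any size, 3 were lower in IDH2R140Q, 1 was higher in IDH2R140W and 0 were lower in IDH2R172K. The macrophage receptor VSIG4 rose by 2.88 in IDH1R132H, 1.52 in IDH2R140Q and 2.84 in IDH2R172K, and F13A1, a clotting factor of macrophages, by 1.66, 3.80 and 3.33 in these lines (limma adjusted p of 1.43e-06 or less each). The summed level of the list was 194.8 to 202 TPM in IDH1R132H, 186 to 206 in IDH2R140Q, 153 to 179 in IDH2R140W, 325 to 340.3 in IDH2R172K and 133 to 155 in Parental. MRC1, C1QB, FCN1 and MARCO were listed at 0 in every library and CD14 averaged 0.423 TPM or less in every group, while MS4A4A and MS4A6A reached far higher levels; the part of these markers in the results on the MS4A genes was not tested.

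CLEC10A, the 1 dendritic cell marker of 8 that passed the filter, rose by 1.74 in IDH1R132H and 3.15 in IDH2R172K (limma adjusted p = 1.65e-07 and 7.25e-10). Of 14 genes of granulocyte-monocyte progenitors and azurophil granules 8 passed the filter, with 1 higher and 0 lower in IDH1R132H, 1 and 1 in IDH2R140Q, 2 and 1 in IDH2R140W, and 1 and 1 in IDH2R172K; in IDH1R132H 2 were lower at an unadjusted limma p under 0.05. CTSG, the granule protease cathepsin G, rose in all 4 lines, by 4.57, 3.07, 4.13 and 5.38 in that order. Other genes of this list went the other way. MPO fell by 1.15 in IDH2R140Q and by 1.39 in IDH2R140W (limma adjusted p = 0.00213 and 0.00102), and GFI1 fell by 1.42 in IDH2R172K (limma adjusted p = 5.35e-06). Without Parental replicate 1 the list had 1 higher and 0 lower in IDH2R140Q. Of 10 B and T cell markers 4 passed, with 1 higher and 1 lower in IDH1R132H, 1 and 2 in IDH2R140Q, 0 and 1 in IDH2R140W and 0 and 0 in IDH2R172K, where limma gave 0 at an unadjusted p under 0.05 as well. MS4A1 (CD20) and CD79A were listed at 0 in every library. Of 10 stromal and epithelial markers 3 passed. The keratin KRT18 averaged 652, 457, 472 and 479.9 TPM in IDH1R132H, IDH2R140Q, IDH2R140W and IDH2R172K and 522 TPM in Parental, and neither it nor KRT8 passed the call rule, which asks for a log2 difference of at least 1, in any line. The endothelial cadherin CDH5 alone rose, by 2.94 in IDH1R132H, 1.75 in IDH2R140Q and 3.87 in IDH2R172K.

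The identity list of TF-1 cells held 14 genes, 11 of which passed the filter, with 1 higher and 2 lower in IDH1R132H, 1 and 4 in IDH2R140Q, 1 and 3 in IDH2R140W, and 2 and 1 in IDH2R172K. CD34, a progenitor marker, rose by 1.76 in IDH1R132H, 1.68 in IDH2R140Q and 1.82 in IDH2R172K (limma adjusted p = 5.16e-08, 1.04e-07 and 5.14e-08). The leukocyte marker PTPRC averaged 151, 151.5, 97.5 and 86.3 TPM in IDH1R132H, IDH2R140Q, IDH2R140W and IDH2R172K and 79.1 TPM in Parental. CSF2RA and IL3RA, alpha chains of the GM-CSF and IL-3 receptors, were listed at 0 in all 15 libraries although Parental cells grew with GM-CSF, so a 0 in this table need not mean that a gene is silent.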
